A study of Mus musculus with 384 samples.

Results

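The mice described here are 24 F mice of a Diversity Outbred liver RNA study, chosen by their level of Cyp4a12a, a fatty acid hydroxylase gene that is far higher in M liver. The 98 F mice were ranked within each diet on log2(value + 0.06) of Cyp4a12a in the deposited table. The highest 1 in 4 of each diet, 12 of 50 mice on chow and 12 of 48 on the high fat diet, form the top group of 24 of the 192 mice in all. They are set against the lowest 1 in 4, the bottom group of 12 and 12 mice, with 50 F mice in between and 94 M mice (48 on chow and 46 on high fat) as points of comparison. The question was whether the other genes that hormones set apart in M and F liver differ along with this gene.

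All mice were wild type animals of the outbred stock J:DO, whose founders are several inbred strains, and each mouse therefore carries its own genotype. They were 26 weeks old and had eaten chow with 6% fat by weight or a diet with 22% fat by weight from weaning. Each mouse has a generation label (G11L1 or G11L2, not explained in the labels) and a coat colour. The top group held 10 G11L1 and 14 G11L2 mice, against 14 and 10 in the bottom group. A sample is 1 piece of liver from 1 mouse, so fewer cells of a type and less RNA per cell cannot be told apart.

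Sex-biased genes of rodent liver follow the timing of growth hormone release, which is pulsed in M and nearly continuous in F animals, and androgens and oestrogens act largely by setting that pattern. The hormone's signal reaches the genes through the factor STAT5B, and repressors such as CUX2 in F liver and BCL6 in M liver hold the genes of the other sex down. Cyp4a12a belongs to a cluster of Cyp4a genes whose enzymes hydroxylate fatty acids, and in mice it is known as an androgen-responsive gene of liver and kidney.

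Cyp4a12a (ENSMUSG00000066071, GRCm38 chromosome 4, 115299046 to 115332815, plus strand) has a neighbouring copy, Cyp4a12b (ENSMUSG00000078597, 115411624 to 115439034). Their coding sequences in GENCODE M21 are 1524 bases each and 98.5% identical, with 23 differing bases and a longest identical run of 342 bases. Of all windows of 100 bases, the read length of the study, 35.8% of those in the Cyp4a12a transcript also occur in Cyp4a12b, so part of the reads could have come from either gene. The coding window where the copies differ most shows how little separates them, with 8 differing bases in capitals (coding bases 664 to 763, GRCm38 chr4:115326662-115326761 for Cyp4a12a and chr4:115432915-115433014 for Cyp4a12b, plus strand):
Cyp4a12a: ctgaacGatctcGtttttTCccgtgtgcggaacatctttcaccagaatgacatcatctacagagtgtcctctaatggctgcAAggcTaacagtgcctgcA
Cyp4a12b: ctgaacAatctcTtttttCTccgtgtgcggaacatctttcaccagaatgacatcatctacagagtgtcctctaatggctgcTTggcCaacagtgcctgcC
How the authors assigned reads that match both copies is not given in the sources used here. The level of Cyp4a12b is for this reason not independent of the choice of mice.

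The values that selected the mice are a description and were not tested. In top mice Cyp4a12a had a signal of 1.35 to 49.8 on chow (median 6.82) and 0.966 to 36.8 on high fat (median 1.48). In bottom mice it was 0.243 to 0.355 on chow (median 0.324) and 0.248 to 0.431 on high fat (median 0.374). The signal is the authors' value scaled to each mouse's upper quartile and not to gene length, so it compares mice and not genes. The ranking had no gap at its thresholds. Just inside the top group were mice F331 on chow (1.35) and F417 on high fat (0.966), and just outside F334 (1.30) and F365 (0.885). At the lower threshold F347 (0.355) and F364 (0.431) were inside the bottom group, and F380 (0.367) and F354 (0.446) outside.

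The name M-type does not hold for the level in most of these mice. M livers had 93.7 to 343 on chow (median 238) and 29.3 to 303 on high fat (median 181). On chow, 0 of 50 F mice reached the lowest M mouse of the diet, and on high fat 1 of 48 did, F408 with 36.8. That lowest M mouse was M365 (29.3), and the next lowest on high fat, M373, had 66.9. The group is therefore called the top group below. The other marker genes proposed for it, the major urinary protein gene Mup7 and the serpin gene Serpina1e, ranked the F mice in part differently. The top group by Cyp4a12a and the top group by Mup7 shared 5 mice (20.8% of each), and with Serpina1e 8 mice (33.3% of each). The bottom groups shared 10 mice with Mup7 (41.7%) and 11 with Serpina1e (45.8%), and each group holds 24 of the 98 F mice. Of the top group by Cyp4a12a, 7 mice (29.2%) were in the bottom group by Mup7 and 5 (20.8%) in that by Serpina1e.

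**Figure D1:**
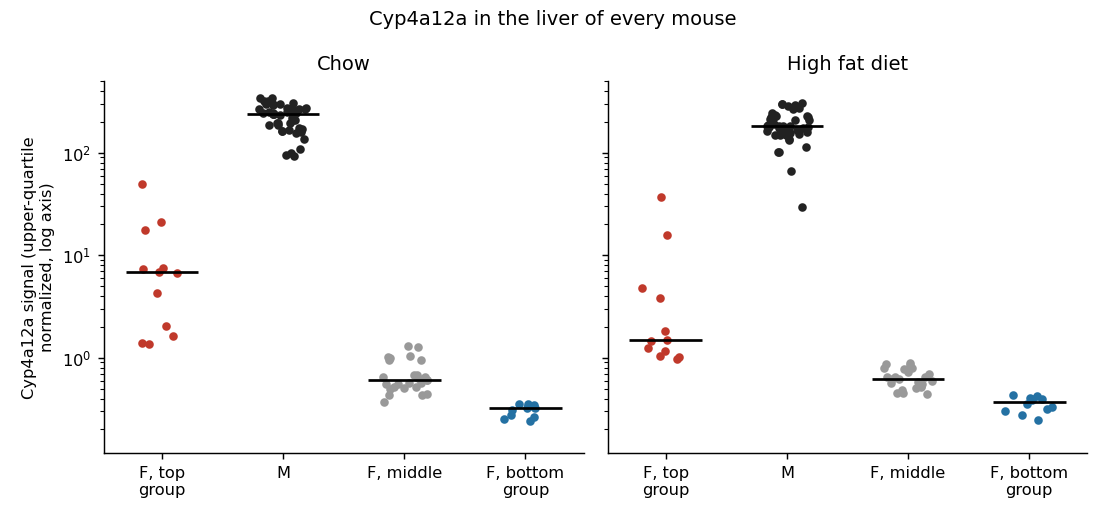
Cyp4a12a signal of every mouse on a log axis, by diet, for F mice of the top group, M mice, middle F mice and F mice of the bottom group, with bars at the medians. The top group reaches from 0.966 to 49.8, and only F408 on the high fat diet (36.8) lies at or above the lowest M mouse of its diet.

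Across the other 14597 genes tested with limma, with diet and generation as covariates, 2 differed between the top and bottom groups at an adjusted p under 0.05 (0.0137% of genes). Cyp4a12b was higher and Cyp2c39, a cytochrome P450 gene of the Cyp2c family that is F-biased here, was lower. At an unadjusted p under 0.05, 338 genes were higher (2.32%) and 2.9% of genes were lower. Together the shares come to about what this threshold itself gives when no gene differs.

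Cyp4a12b had a signal of 0 to 49.1 in the 24 top mice (median 5.64), against 0 to 0.402 in the 24 bottom mice (median 0.0541). It was higher in the top group by 4.62 ± 0.48 on the log2 scale (SE, adjusted p = 1.28e-08). Of the top mice 20 lay above the highest bottom mouse, all 12 on chow and 8 of 12 on high fat, and so did 18 of the 50 middle F mice. M livers had a median of 36.7. The copies did not keep a fixed ratio. F408 had 36.8 for Cyp4a12a and 0.732 for Cyp4a12b, whereas F331 had 1.35 and 11.6. For Cyp4a12b 1 top mouse was listed at 0.

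**Figure D2:**
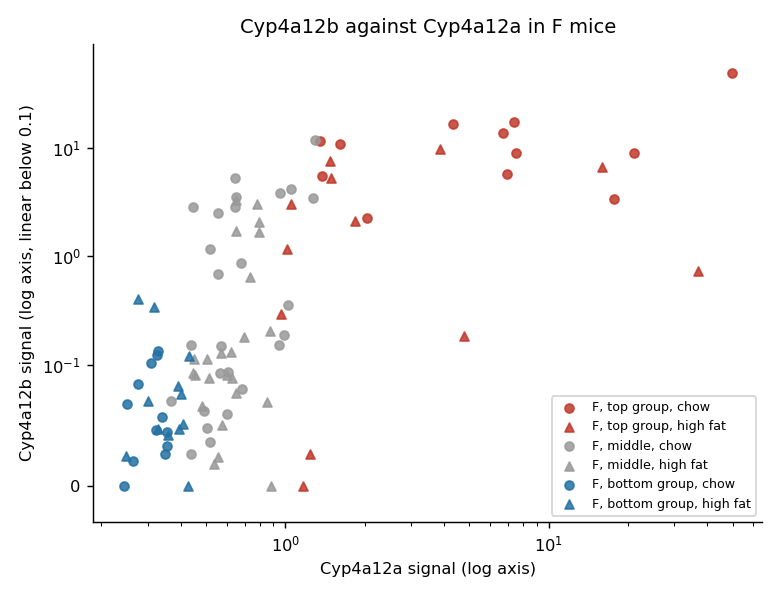
Cyp4a12b signal against Cyp4a12a signal in the 98 F mice, coloured by group, with circles for chow and triangles for high fat; the vertical axis is linear below 0.1. Of the 24 top mice, 20 lie above the highest bottom mouse (0.402), and 4 top mice on high fat do not.

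Cyp2c39 (ENSMUSG00000025003, chromosome 19, 39510862 to 39568529) had 64.0 to 181 in top mice (median 107), against 84.2 to 211 in bottom mice (median 164). Its mean was 110 ± 28.5 in the top and 154 ± 32.9 in the bottom group (SD, n = 24 each). The difference was -0.51 ± 0.098 on the log2 scale (adjusted p = 0.0287), and the ranges overlapped, with 3 top mice below every bottom mouse. M livers averaged 24.9. None of its 100-base windows occurs in another gene's transcript. The direction was negative in all 28 alternatives, yet the call was lost in 17 of them, among these quantile normalization (adjusted p = 0.0643) and the slope over all F mice (-0.06 per doubling of Cyp4a12a, adjusted p = 0.891).

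For a contrast within each diet, the mice of both diets were fitted together with a mean for each group and diet. On chow 2 genes were called (0.0137%): Cyp4a12b (6.25 ± 0.59, adjusted p = 6.90e-10) and the pseudogene Gm13015 (2.03 ± 0.28, adjusted p = 2.14e-05). Gm13015 is also on chromosome 4 and starts 1849.9 kb from the start of Cyp4a12a. On high fat the same limma fit called 0 genes, with 1121 (7.68%) at an unadjusted p under 0.05, against 501 (3.43%) on chow. Cyp4a12b differed on high fat by 2.99 ± 0.59 (adjusted p = 0.0644). The difference between the diets was called for 0 genes, with 787 (5.39%) at an unadjusted p under 0.05 and a smallest adjusted p of 0.209. For Cyp4a12b it was -3.25 ± 0.82 (high fat minus chow, adjusted p = 0.528). The alternatives' counts for these contrasts stand with the processing results.

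To describe the wider programme, genes were classed by the difference between M mice and the 50 middle F mice, which are in neither group. Of 14597 genes 434 (2.97%) had an adjusted p under 0.05 and at least a 2-fold difference, 224 higher in M (M-biased) and 210 lower in M (F-biased). These classes do not use the mice of the top and bottom groups, although the earlier results of the same table were known when they were defined.

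Both classes leaned toward the M side in the top group relative to the bottom group, by a small amount. Among the M-biased genes 186 of 224 (83.0%) had a top minus bottom value above 0, with a median of 0.19 on the log2 scale, against 46.8% and -0.01 over all genes tested. Among the F-biased genes 167 of 210 (79.5%) lay below 0, with a median of -0.18. The median gene covered 10.1% of its own M minus F difference in the M-biased class and 9.52% in the F-biased class. These sizes depend on the pseudocount: one 10 times larger gave 5.17% and 7.30%, and one 10 times smaller 14.2% and 9.98%. At an unadjusted p under 0.05, 32 M-biased genes were higher and 1 lower, against 2.32% and 2.9% of all genes, and 42 F-biased genes were lower and 2 higher. After adjustment over all genes Cyp4a12b and Cyp2c39 were the only class members called, and Cyp4a12b is not independent of the choice of mice. Genes of a class are not independent of each other, so these counts are descriptions and carry no test.

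The size of this lean varied between subsets of the mice. Without F408 the medians covered 8.66% (M-biased) and 8.38% (F-biased) of the sex difference. In the 24 mice of both groups with label G11L1 they were 13.2% and 3.10%, with 58.6% of F-biased genes below 0. In the 24 of label G11L2 they were 9.28% and 16.6%, with 84.3% below 0. The difference between the generations was not tested. Within chow the values were 9.30% and 12.0%, and within high fat 7.23% and 11.7%.

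**Figure D3:**
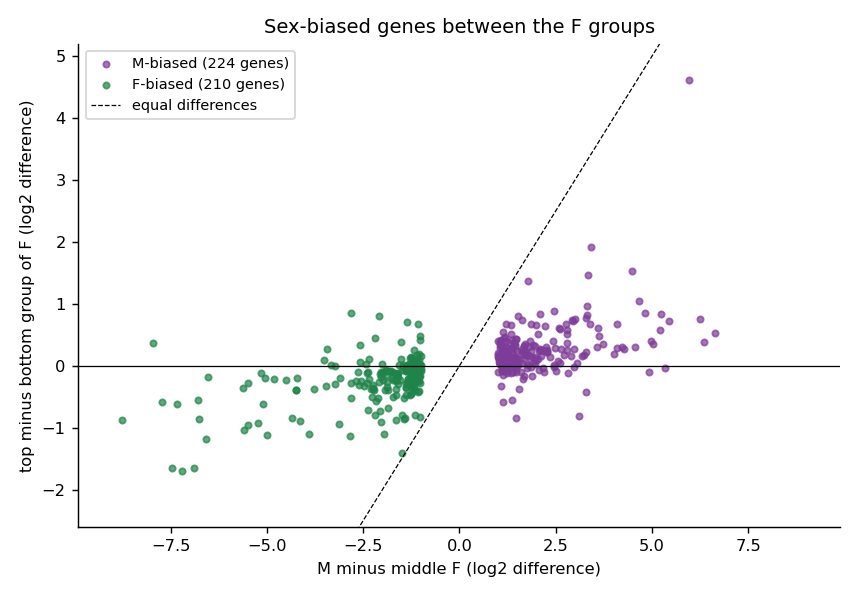
Log2 difference between the top and bottom groups of F mice (vertical) against the log2 difference between M and middle F mice (horizontal), with 224 M-biased and 210 F-biased genes as points; the dashed line marks equal differences. Most points lie far nearer to 0 than to the dashed line, and Cyp4a12b (4.62) stands above all others.

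Single mice were placed between the middle F mice of their diet (0%) and the M mice (100%) by the median over the genes of a class. Top mice lay at -15.8% to 57.8% on M-biased genes (median 1.17%), against -20.6% to 11.2% in bottom mice (median -6.33%). On F-biased genes top mice lay at -15.5% to 42.3% (median 8.30%), against -19.2% to 23.1% in bottom mice (median -3.90%). Middle F mice had medians of -2.17% on M-biased and -3.27% on F-biased genes. For M-biased genes the high fat medians were -0.89% in top, -1.49% in middle and -6.42% in bottom mice. On chow they were 5.46%, -2.17% and -5.05%. The groups overlapped broadly: 5 top mice on M-biased and 2 on F-biased genes were above every bottom mouse. M mice lay at 30.0% to 146% on M-biased genes and 33.4% to 143% on F-biased genes.

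F408 on high fat, at 57.8% and 42.3%, fell within the range of M mice on both classes, and its Mup7 signal of 3866 was the highest of these 48 mice. M365 set the low end of that range on both classes (30.0% and 33.4%), and no other M mouse lay below F408 on F-biased genes. The medians of M mice on high fat were 105% and 107%. Among top mice F391 on chow came next after F408, with 22.2% and 41.4%, although its Cyp4a12a was 7.39. F343 had the highest Cyp4a12a of all F mice (49.8) and lay at 17.9% and 13.6%. F383, with 17.7 for Cyp4a12a, lay at -8.75% and 16.5%. The order of the top mice by Cyp4a12a was thus not their order on the wider programme.

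**Figure D4:**
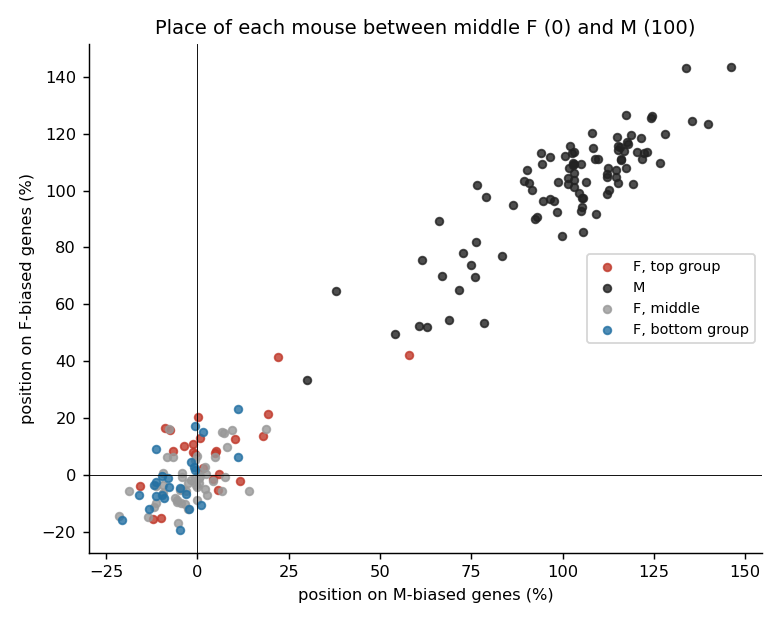
Position of each mouse on M-biased (horizontal) and F-biased (vertical) genes, in percent of the way from middle F mice (0) to M mice (100) of the same diet. Top mice mix with bottom and middle F mice near 0, and F408 (57.8% and 42.3%) and F391 (22.2% and 41.4%) stand apart from them.

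Beyond the called genes, 3 of the class members with the smallest unadjusted p are given as a description, chosen after their values were seen. Cyp2c67, an M-biased cytochrome gene of the family of Cyp2c39, averaged 28.7 ± 12.5 in the top and 18.1 ± 8.19 in the bottom group (SD, n = 24 each), a log2 difference of 0.68 ± 0.17 (adjusted p = 0.332). The F-biased gene Pygo1, a cofactor of Wnt signalling, averaged 0.510 ± 0.284 in the top and 0.838 ± 0.373 in the bottom group (-0.80 ± 0.19, adjusted p = 0.238). Slc22a28, an organic anion transporter gene higher in M liver, differed by 2.90 ± 0.64 on chow and 0.17 ± 0.64 on high fat, and the difference between the diets was not called (adjusted p = 0.790).

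Neither proposed marker passed the test between the groups. Mup7, which encodes a pheromone carrier secreted by the liver, had 47.9 to 3866 in top mice (median 192), against 19.6 to 1298 in bottom mice (median 116). The log2 difference was 0.58 ± 0.42 (adjusted p = 0.982), with 2 SE on either side reaching from -0.25 to 1.42. Serpina1e, of the alpha-1-antitrypsin family of protease inhibitors, had 4.18 to 1607 in top mice (median 25.7) and 2.70 to 334 in bottom mice (median 9.49). Its difference was 1.05 ± 0.55 (adjusted p = 0.954, 2 SE from -0.04 to 2.14). The highest Serpina1e belonged to F381 and the highest Mup7 to F408, and F381 had a Mup7 signal of 383.

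Of 23 M-biased liver genes in a list from general knowledge, the 1 called was Cyp4a12b, which is not independent of the choice of mice. With Cyp4a12b counted, 6 were higher at an unadjusted p under 0.05, against 2.32% of all genes. The list had a median difference of 0.36, with 18 above 0, against -0.01 and 46.8% over all genes. The enzyme gene of haem synthesis Alas2 averaged 5.62 ± 2.69 in the top and 3.81 ± 1.92 in the bottom group (log2 difference 0.61 ± 0.21, adjusted p = 0.822). Gstp1, a glutathione transferase, averaged 35.4 ± 9.10 in the top and 28.5 ± 4.49 in the bottom group (0.26 ± 0.09, adjusted p = 0.865), and 10 top mice exceeded every bottom mouse. Obp2a, an odorant-binding protein gene, was near 0 in both groups, at most 0.171 in top and 0.0294 in bottom mice.

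The 20 major urinary protein genes tested had a median difference of 0.59, with 17 above 0 (46.8% over all genes), 4 higher at an unadjusted p under 0.05 (2.32% over all genes) and 0 called. Mup20, the M pheromone darcin, had 1.53 to 30.6 in top mice (median 3.53) and 1.16 to 5.64 in bottom mice (median 2.25). It differed by 0.76 ± 0.25 (adjusted p = 0.775), and 8 top mice lay above every bottom mouse. The lowest M mouse had 16.4. Mup3 differed by 0.97 ± 0.40, Mup21 by 0.54 ± 0.24 and Mup18 by 1.92 ± 0.85 (adjusted p = 0.950 for Mup18). Mup21 was highest in the top mice F343 (7.65) and F408 (2.95), against at most 1.36 in the others. Mup18 had 0.261 to 349 in top mice and 0.126 to 494 in bottom mice, with most mice of both groups far below the highest values. Other genes hold 87.1% of the 100-base windows of Mup18, 81.6% of Mup7 and 38.8% of Mup20, but 4.5% of Mup21 and 2.9% of Mup3, so the first 3 are uncertain as single genes.

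The list of 35 F-biased liver genes, also from general knowledge, had 33 members below 0 and a median of -0.36. At an unadjusted p under 0.05, 14 were lower (2.9% over all genes) and 0 higher, and 0 were called. Cyp3a16, a steroid-metabolising cytochrome gene of F liver, had 0.254 to 95.9 in top mice (median 17.4), against 14.5 to 162 in bottom mice (median 53.2). Its difference was -1.66 ± 0.44 (adjusted p = 0.410), and 10 of 24 top mice were below every bottom mouse. The lowest were F408 with 0.254 and F395 with 0.456, both within the M range of 0.0267 to 1.03. Abcd2, a peroxisomal fatty acid transporter, averaged 20.9 ± 6.83 in the top and 26.4 ± 6.54 in the bottom group (-0.37 ± 0.12, adjusted p = 0.774).

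A1bg, a secreted plasma protein of F mouse liver, had 1.60 to 637 in top mice (median 48.0), against 13.1 to 990 in bottom mice (median 172). Its difference was -0.21 ± 0.75 on chow and -3.18 ± 0.75 on high fat, and the difference between the diets was not called (adjusted p = 0.823).

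Among 22 regulators of growth hormone signalling and of the sex programme, 4 were lower and 0 higher at an unadjusted p under 0.05 (2.9% and 2.32% over all genes), with a median of -0.06 and 0 called. Cux2, the F-specific repressor of M-biased genes, had 0.408 to 19.5 in top mice (median 9.47), against 2.53 to 27.2 in bottom mice (median 15.9). It differed by -1.04 ± 0.31 (adjusted p = 0.774), and 3 top mice lay below every bottom mouse. These 3 mice, F391 (0.408), F408 (1.41) and F409 (1.73), lay within the M range of 0.0526 to 1.76. Lepr, the leptin receptor, averaged 1.69 ± 1.29 in the top and 3.19 ± 1.96 in the bottom group (-0.87 ± 0.23, adjusted p = 0.444). Prlr, the prolactin receptor (-0.26 ± 0.11), and Trim24, a nuclear receptor cofactor (-0.24 ± 0.11), were the other 2, and all 4 are F-biased here.

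Steroid receptors and enzymes differed little, with 14 tested, a median of -0.08 and 1 lower at an unadjusted p under 0.05 (2.9% over all genes). That one was the oestrogen receptor gene Esr1 (-0.31 ± 0.13, adjusted p = 0.950). The 18 fatty acid synthesis genes, 24 cholesterol genes, 20 interferon genes and 15 clock genes had 0 members at an unadjusted p under 0.05 in either direction. Among 10 fasting and gluconeogenesis genes 1 was lower, the insulin receptor substrate gene Irs2 (-0.45 ± 0.16), and among 22 acute phase genes 1 was higher, the haem carrier Hpx (0.30 ± 0.13). At this threshold 2.9% of all genes were lower and 2.32% higher. The signs leaned to one side in some of these lists too, against 46.8% above 0 over all genes. Below 0 lay 11 of 14 steroid genes, 15 of 18 fatty acid synthesis genes and all 10 fasting genes. Above 0 lay 17 of 24 cholesterol genes and 17 of 20 interferon genes, although the interferon list had a median M minus middle F difference of -0.28. Clock genes (7 above, 8 below) and acute phase genes (11 and 11) were split.

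**Figure D5:**
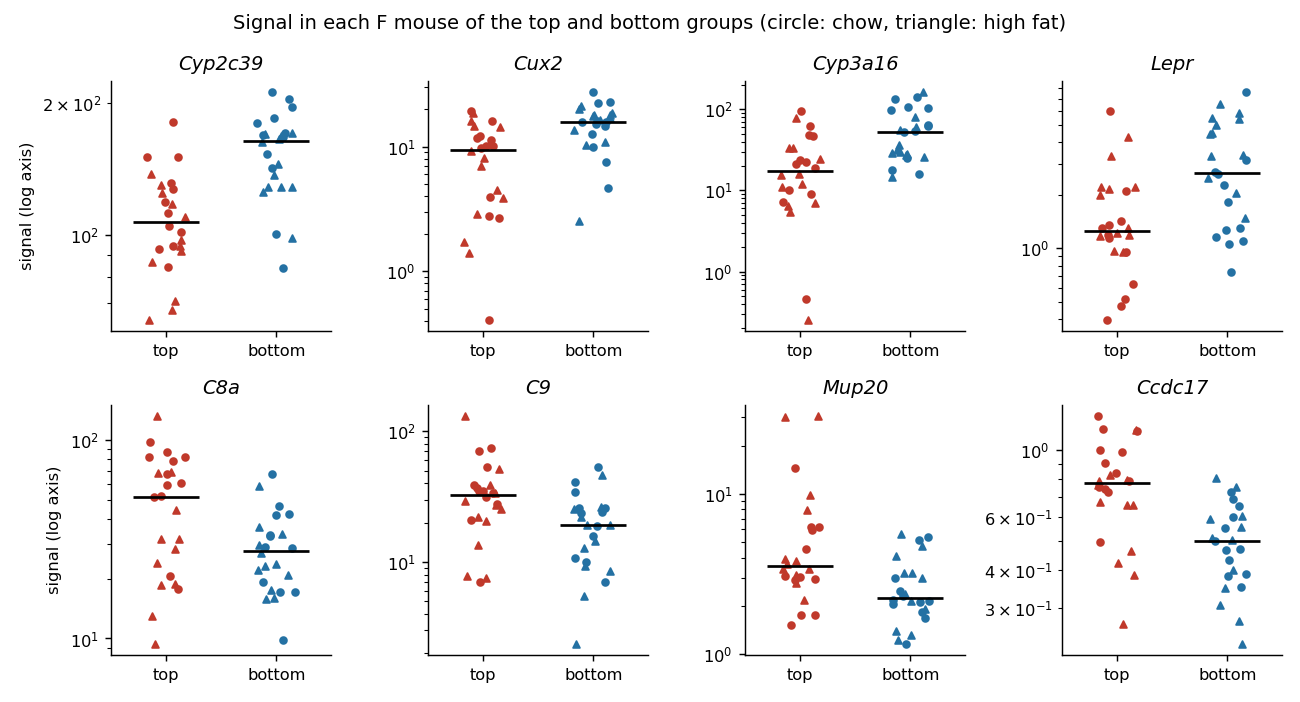
Signal of 8 genes in each F mouse of the top (left, 24 mice) and bottom group (right, 24 mice) on log axes, with circles for chow, triangles for high fat and bars at the medians. The groups overlap for all 8 genes, and the medians of Cyp2c39 are 107 in top and 164 in bottom mice.

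The 2 groups leave out the size of the Cyp4a12a level, so a slope on log2 Cyp4a12a over all 98 F mice was fitted as well. It called 18 of 14597 genes (0.123%), 10 with a positive and 8 with a negative slope. All 8 negative genes are F-biased, and 7 of the 10 positive ones are M-biased. Without F408, 8 of 15 negative genes were F-biased and 2 of 5 positive ones M-biased. These shares were 6 of 6 and 7 of 9 without F343, and 7 of 7 and 6 of 8 without the low-Xist library F385. The slope shares the middle F mice with the comparison that set the classes, so the slope calls and the classes are not independent of each other.

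The negative slopes, per doubling of Cyp4a12a, were largest for Sult2a3, a sulfotransferase of steroids and bile acids (-0.62 ± 0.10, adjusted p = 0.000157), and Cyp3a16 (-0.58 ± 0.085, adjusted p = 3.53e-06). Cyp3a44 (-0.40 ± 0.094), Cyp17a1, an enzyme of steroid synthesis (-0.31 ± 0.073), Cux2 (-0.31 ± 0.059, adjusted p = 0.00284), Prom1 (-0.30 ± 0.060), the fatty acid hydroxylase Cyp4a14 (-0.28 ± 0.064) and Slc22a27, an organic anion transporter (-0.13 ± 0.031), followed. Sult2a3 had 0.0181 to 32.2 in top mice (median 6.93), against 0.105 to 58.3 in bottom mice (median 19.3). For Slc22a27 the groups themselves gave -0.23 ± 0.17. Without F408 the slope no longer called Cyp17a1 and Slc22a27, without F343 no longer Cyp3a44, Cyp4a14 and Slc22a27, and without the low-Xist library F385 no longer Cyp3a44. Sult2a3, Cyp3a16, Cux2 and Prom1 were called in all 4 slopes.

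The positive slopes included 2 genes of the membrane attack complex of complement. C8a had 9.43 to 132 in top mice (median 51.9), against 9.84 to 67.7 in bottom mice (median 27.7), with a slope of 0.22 ± 0.046 (adjusted p = 0.00809). C9 had 7.07 to 130 in top mice (median 32.7), against 2.38 to 53.6 in bottom mice (median 19.2), with a slope of 0.28 ± 0.063 (adjusted p = 0.0320). F408 was the highest top mouse for both genes. The thrombin receptor gene F2r (0.09 ± 0.021), the lysosomal arylsulfatase gene Arsa (0.12 ± 0.026) and the replication factor gene Mcm10 (0.13 ± 0.030) were the other called M-biased genes besides Cyp4a12b and the pseudogene Cyp4a30-ps. Without F408, 20 genes were called, 10 of them among the 18. Of the M-biased calls 2 were left, and C8a, C9, F2r, Arsa and Mcm10 were no longer called. Without F343, 15 genes were called, 12 of them among the 18, and Mcm10 was not. Without F385 Mcm10 was not called either.

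The sequence TTCNNNGAA, the core that STAT5 recognises, was looked for in RefSeq promoters (GRCm38.p6, 250 bases before to 50 after a gene's start; the motif reads the same on both strands). It was present for 2 of the 13 slope-called genes with a promoter entry (15.4%), 15 of 156 M-biased genes (9.62%), 12 of 149 F-biased genes (8.05%) and 9.55% of all 27025 genes with an entry. The 2 slope-called genes with a match, Arsa and C8a, are shown with the motif in capitals and 20 bases on either side:
Arsa: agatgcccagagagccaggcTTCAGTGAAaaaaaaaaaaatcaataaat
C8a: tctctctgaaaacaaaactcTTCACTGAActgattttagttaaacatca
The stretches lie at GRCm38.p6 chr15:89477512-89477560 (minus strand) for Arsa and chr4:104876598-104876646 (minus strand) for C8a. The motif starts 116 and 228 bases before the gene's start.

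The neighbours of Cyp4a12a on chromosome 4 were looked at as a group of their own. Within 1 Mb of its start 23 genes were tested: 1 was called by the groups, 5 were higher and 1 lower at an unadjusted p under 0.05, and 4 were called by the slope. Those counts stand beside 2.32% higher, 2.9% lower and 0.123% called by the slope over all genes. The 4 were Cyp4a12b, Cyp4a30-ps (0.13 ± 0.016, adjusted p = 7.09e-09), Cyp4a32 (0.32 ± 0.073, adjusted p = 0.0320) and Cyp4a14, which runs the other way. Without F343 the slope called neither Cyp4a32 nor Cyp4a14. Cyp4a30-ps was detected in 9 top mice, at most at 0.156, and was listed at 0 in all bottom mice. No 100-base window of Cyp4a14, Cyp4a30-ps, Cyp4a31 or Cyp4a32 occurs in the Cyp4a12a transcript.

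Cyp4a32, another fatty acid hydroxylase of the cluster, had 2.06 to 28.1 in top mice (median 11.6), against 0.584 to 21.9 in bottom mice (median 5.07). It differed by 2.03 ± 0.45 on chow and 0.31 ± 0.45 on high fat. Cyp4a31 differed by 1.88 ± 0.42 on chow and -0.26 ± 0.42 on high fat, although it is F-biased between the sexes. Neither difference between the diets was called (adjusted p = 0.859 for Cyp4a32 and 0.660 for Cyp4a31). Cyp4a14 had 5.03 to 337 in top mice (median 108), against 54.6 to 489 in bottom mice (median 168), a difference of -0.94 ± 0.25 (adjusted p = 0.410). The slope-called genes Ccdc17 (0.14 ± 0.029, adjusted p = 0.00809) and Eif2b3, a subunit of a translation initiation factor (0.08 ± 0.018), lie within 5 Mb, a window chosen after the values were seen. The slope called 6 of the 87 genes tested in that window, those within 1 Mb included. Gm13015 lies there too, with a slope of 0.24 (adjusted p = 0.119), and was called by the slope without F343 and without F408. The M minus middle F differences on the log2 scale were -0.01 for Ccdc17 and 0.51 for Eif2b3. Eif2b3 was not called by the slope without F408, F343 or F385. Ccdc17 had 0.265 to 1.29 in top mice (median 0.777), against 0.229 to 0.808 in bottom mice (median 0.5), and 9 top mice lay above every bottom mouse. Of 28 PPAR alpha targets and fatty acid oxidation genes, a list that holds several of this cluster, 2 were higher (Cyp4a31 and Cyp4a32) and 4 lower at an unadjusted p under 0.05, with a median of -0.07. Over all genes 2.32% were higher and 2.9% lower.

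Depth and cell content touch these comparisons in a few places. By the step size of the low values, all mice had 9.80 to 17.9 M reads (megareads). The top group had 13.5 ± 1.43 M and the bottom group 14.6 ± 1.26 M (SD, n = 24 each, 2-sided permutation p = 0.00914, adjusted over 7 technical measures p = 0.0640). The other 6 measures had adjusted p-values of 0.303 or more. The part of depth in the results was not tested. Hepatocyte markers summed to 15136 to 39204 in the top and 15228 to 34403 in the bottom group, with 0 of 9 at an unadjusted p under 0.05.

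Of the 12 Kupffer cell and 12 lymphocyte markers 0 had an unadjusted p under 0.05, and 10 of each list lay above 0 (46.8% over all genes). Their median M minus middle F differences were -0.49 and -0.54. Of 10 sinusoidal endothelial markers 2 were higher at this threshold, Lyve1 (0.52 ± 0.23) and Pecam1 (0.13 ± 0.058). The endothelial list as a whole had 4 above 0, 6 below and a median of -0.04. At an unadjusted p under 0.05, the shares over all genes, for this and the following lists, were 2.32% higher and 2.9% lower. Of 8 lipid-associated macrophage markers 1 was higher, Spp1 (0.56 ± 0.18), which is also 1 of 7 bile duct markers. Its highest values were in the high fat top mice F409 (35.3), F412 (28.9) and F416 (38.2), against at most 12.1 in the others. The same mice had the highest Gpnmb (3.28, 5.74 and 6.02) and Col3a1 (16.0, 10.4 and 12.7). Their Cux2 was 1.73, 4.46 and 3.90, below the top group's median, and their part in the results was not tested. Among the bile duct markers Krt23, F-biased here, was lower (-0.88 ± 0.38). The 6 neutrophil, 10 stellate cell and 5 X-inactivation and escape genes had 0 members at an unadjusted p under 0.05, and of 6 erythroid genes 1 was higher, Alas2. All 6 neutrophil markers and 7 of the 8 lipid-associated macrophage markers lay above 0. All 10 pancreas markers tested lay below 0, 2 of them at an unadjusted p under 0.05 (Pnlip and Prss2), and their sum was 0.607 to 6.70 in top mice and 0.75 to 193 in bottom mice, with a median of 0 for Pnlip and Prss2 in either group. All 4 skeletal muscle markers tested lay below 0, 3 of them at an unadjusted p under 0.05 (Mylpf, Ckm and Acta1), with sums up to 1.43 in top and 17.7 in bottom mice, and the part of muscle RNA in the results was not tested. Without the mice with pancreas transcripts the classes covered 10.9% (M-biased) and 11.7% (F-biased) of the sex difference, and 1 gene was called.

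The library F385, a bottom mouse on chow, had an Xist signal of 0.361, against 88.2 to 312 in the other F mice and 0.332 to 2.47 in M mice. Its Cyp3a41a signal of 511 and Cux2 signal of 14.6 lay within the range of the other F mice. Of the X-inactivation escape genes, Eif2s3x (22.6) and Kdm5c (13.2) lay below all other F mice (lowest 24.8 and 13.3). Kdm6a (3.48) and Ddx3x (50.2) lay within their range. F385 is also among the mice with pancreas transcripts, and its signal for the muscle gene Acta1 was 9.25. Leaving it out therefore changes more than Xist. Without F385, 2 genes were called between the groups, and the slope called 15 genes, all among the 18. The classes then covered 11.1% (M-biased) and 10.5% (F-biased) of the sex difference.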

How the data were processed

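Per the labels, liver mRNA libraries of 192 mice were read from one end over 100 bp in 2 technical repeats, and the deposited table has 1 column for each mouse. The authors deposited an upper-quartile normalized signal for 21454 genes, per the table's title, which is not divided by gene length. Per the submitters' processing notes, CASAVA 1.8.0 was used with GRCm38 (mm10). Aligner and counting tool are not given in the sources used here. Values are therefore relative to the rest of a mouse's RNA, and a proportional shift shared by most genes is removed with the scaling.

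IDs were matched to GENCODE M21 (GRCm38): 21022 had an entry. Genes with a value above 0 in at least 48 mice and a mean of at least the pseudocount were kept, which left 14597 without Cyp4a12a. limma 3.58.1 in R 4.3.3 fitted log2(value + 0.0629), a scale that understates the change of low genes, with diet and generation as covariates and a mean-variance trend. Adjusted p-values (limma, Benjamini-Hochberg) cover all genes tested, and a gene was called under 0.05. The mouse is the replicate. Differences are top minus bottom ± SE, and group values mean ± SD. The fit was tried on simulated data with independent normal values for each gene. The simulation held no outlier mice and no genes listed at 0 in many mice, so it does not show how the fit handles these. Technical measures were compared with 100000 permutations. Sequences come from GENCODE M21 and RefSeq (GRCm38.p6) and were compared with Biopython 1.88.

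The members and the gene lists were chosen with earlier results of these data known. Named genes are the called genes with the largest difference in each direction (at most 12, here 1 higher and 1 lower) and up to 4 members of each list with the smallest p, besides the markers and the genes called by the slope. Alternatives changed the pseudocount, filter, scaling, group size, ranking, covariates, moderation, weights and the mice included. Leaving out F343 or F408, and the slopes without single mice, were chosen after seeing the data.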

Additional observations from a re-analysis of the deposited data

How the results depend on the processing

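Between the top and bottom groups 2 genes were called. The count was 1 with quantile normalization, with 12 mice in each group, ranked within diet and generation, ranked after median-of-ratios rescaling, in G11L2 mice, with coat colour added, without mice with pancreas transcripts and at a fold of at least 1.5. It was 0 in G11L1 mice and in high fat mice fitted alone, where Cyp4a12b had adjusted p = 0.0936 and 0.491. The adjusted p of 0.0644 given above for Cyp4a12b on high fat comes from the fit of both diets together. The count was 5 with 32 mice in each group. It was 3 with a pseudocount 10 times smaller, without generation as a covariate, without the highest mouse of each diet, without F343 and without F408. The slope called 18 genes, 15 without F343, 20 without F408 and 15 without the mouse with low Xist. On chow the count of 2 became 1 with a filter at 10 pseudocounts or in G11L1 mice, and 4 with all F mice in 3 levels or with array weights. On high fat the count of 0 became 4 with median-of-ratios rescaling, 3 with quantile normalization, 1 with 3 levels, 14 ranked within diet and generation, 2 in G11L2 mice, 2 without generation as a covariate, 8 with array weights, 3 without the highest mouse of each diet and 1 without F408. The diet difference gave 1 call without F343 and 2 without F408. The causes were not tested.

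The sex classes grew from 224 and 210 genes to 534 M-biased and 509 F-biased at a fold of at least 1.5. F and M mice share mouse numbers, and with the number as a replicate block the classes again held 224 and 210 genes. Same-numbered mice did not deviate together (median correlation 0.00801 over 46 pairs, 7 above 0.1), so the numbers do not pair the mice, and the top and bottom groups, all F, cannot be paired.

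The alternatives were followed for 50 genes, and not for every named gene. Among these 50 genes under 28 alternatives, 2 values turned their direction: Cyp4a31 in high fat mice alone (-0.30) and Mup18 in the slope without F343 (-0.044). The class medians kept their side of 0 in all alternatives, while their share of the sex difference ran in the M-biased class from 5.17% (pseudocount 10 times larger) to 14.2% (10 times smaller, and also 12 mice in each group). Depth is known only by estimate, single-read noise was not modelled, and genes near 0 are limited by it. With 24 mice against 24, a gene outside the calls may still differ, as the intervals of Mup7 and Serpina1e show.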
